A study of Mus musculus with 23 samples.

Results

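Zbtb11 binding was measured with 2 different ChIPs in mouse embryonic stem cells (ESCs), and the read coverage of both ChIPs was compared window by window over all 7500 windows of the consensus coverage table. Every window overlapped a peak of both ChIPs, and 0 overlapped a peak of the anti-FLAG ChIP in untagged cells. The Zbtb11 ChIP comprised 4 libraries made with an antibody against Zbtb11 itself, in untreated E14 cells with Zbtb11WT/WT and WT Rosa26 loci. The FLAG ChIP comprised 3 libraries made with the anti-FLAG M2 antibody, in untreated Zbtb11FLAG/FLAG E14 cells, which are also WT at Rosa26 and form a homozygous line that was grown from 1 edited cell and carries 3×FLAG at the N terminus of endogenous Zbtb11. The antibody and the cell line therefore change together, and their parts in any difference cannot be told apart. These 7 libraries are part of a series of 23 that also holds ChIP inputs, which were not analysed here. The series further holds RNA-seq and an anti-FLAG ChIP in untagged E14 cells, which has a list of peaks but no coverage. The RNA-seq covers Zbtb11lox/lox cells with ERt2-Cre at Rosa26, given 4-hydroxytamoxifen (4OHT) to delete Zbtb11 (KO) or ethanol (EtOH control). It also covers Zbtb11WT/WT cells with WT Rosa26 loci that were given 4OHT (4OHT control). The 4OHT dose and time are given with the RNA results by chromosome. A positive difference means more coverage with the Zbtb11 antibody, and a negative one more coverage with FLAG.

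ZBTB proteins are transcription factors that contact DNA through C-terminal zinc fingers and bind partner proteins through a BTB domain. ChIP-seq sequences the DNA that is pulled down with a protein, so coverage in a window rises with occupancy, with how well the antibody reaches the protein there, and with the number of copies of the locus. The Ets factor GABP (NRF-2) and NRF-1 drive many nuclear genes for mitochondrial proteins, and the word CCGGAAG is the core of the site of Ets factors such as GABP.

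The difference between the ChIPs went together with short sequence words, so stretches of 100 bases from windows that differed strongly are shown first, all read from the plus strand of mm9 and chosen as the stretch closest to the window centre that touches no annotated exon. Capitals mark GGAACC, a word picked after the differences had been seen, or its reverse complement GGTTCC, and CCGGAAG or its reverse complement. The first 4 stretches are from windows with more coverage with the Zbtb11 antibody, upstream of Phf12 (chr11:77795481-77795580), upstream of Atp5o (chr16:91931989-91932088), in an intron of Ttbk1 (chr17:46620574-46620673) and upstream of 9430015G10Rik (chr4:155483960-155484059). The last 4 are from windows with more coverage with FLAG, upstream of Zfp512 (chr5:31754709-31754808), in an intron of Gins1 (chr2:150735530-150735629), in an intron of Phyhipl (chr10:70102952-70103051) and downstream of Pde6h (chr6:136938760-136938859). These stretches are examples and do not give the share of windows with a word. Stretches read in the same way at Sarm1 and 4930500J02Rik, also with more coverage with the Zbtb11 antibody, held neither word. Neither did that at 1500001M20Rik, with more coverage with FLAG.
Phf12: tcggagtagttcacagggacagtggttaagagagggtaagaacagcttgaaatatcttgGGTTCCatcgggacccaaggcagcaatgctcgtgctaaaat
Atp5o: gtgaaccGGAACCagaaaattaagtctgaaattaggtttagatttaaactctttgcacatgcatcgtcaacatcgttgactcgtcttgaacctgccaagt
Ttbk1: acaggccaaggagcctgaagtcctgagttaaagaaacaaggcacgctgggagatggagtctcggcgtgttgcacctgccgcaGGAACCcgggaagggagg
9430015G10Rik: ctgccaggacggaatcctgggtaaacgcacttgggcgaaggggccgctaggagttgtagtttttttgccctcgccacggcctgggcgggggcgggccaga
Zfp512: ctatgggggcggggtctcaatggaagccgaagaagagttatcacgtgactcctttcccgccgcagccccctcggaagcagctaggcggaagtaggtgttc
Gins1: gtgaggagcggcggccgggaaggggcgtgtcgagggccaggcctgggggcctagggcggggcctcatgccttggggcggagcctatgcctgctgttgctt
Phyhipl: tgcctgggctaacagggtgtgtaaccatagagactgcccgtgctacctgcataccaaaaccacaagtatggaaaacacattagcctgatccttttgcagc
Pde6h: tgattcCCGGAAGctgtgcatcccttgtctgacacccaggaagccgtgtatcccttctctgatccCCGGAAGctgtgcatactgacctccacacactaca

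Most windows did not differ beyond the spread between libraries. With each library centred on its own median window, 846 of the 7500 windows (11.3%) had more coverage with the Zbtb11 antibody and 501 (6.68%) had more with FLAG (limma on log2(coverage + 1), two-sided, Benjamini-Hochberg adjusted p below 0.05), which leaves 6153 (82.0%) not called. The difference was at least 2-fold at 533 (7.11%) and 211 (2.81%) of the windows, respectively. Libraries of the 2 ChIPs did not overlap at 796 of the 846 and at 465 of the 501 called windows, against 29.2% of all 7500 windows. Over all windows the median difference was -0.10 on the log2 scale, with quartiles of -0.47 and 0.28. Differences of groups of windows are read against this median, which moved to 0.01 when the libraries were not centred.

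The balance between the directions depended on scaling and on single libraries. Blocking on the replicate number, which drops the fourth Zbtb11 library, gave 1076 windows with more coverage with the Zbtb11 antibody and 1022 with more with FLAG. Of the 846 and 501 windows, 842 and 501 were called with the block too. Windows with more coverage with the Zbtb11 antibody made up 62.8% of all calls, against 79.7% without centring, 76.2% with edgeR on the recovered reads and 51.3% with the block. The FLAG count fell to 248 without FLAG replicate 1 and to 131 without FLAG replicate 2, and the 2-fold FLAG count to 129 and 80.

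**Figure D1:**
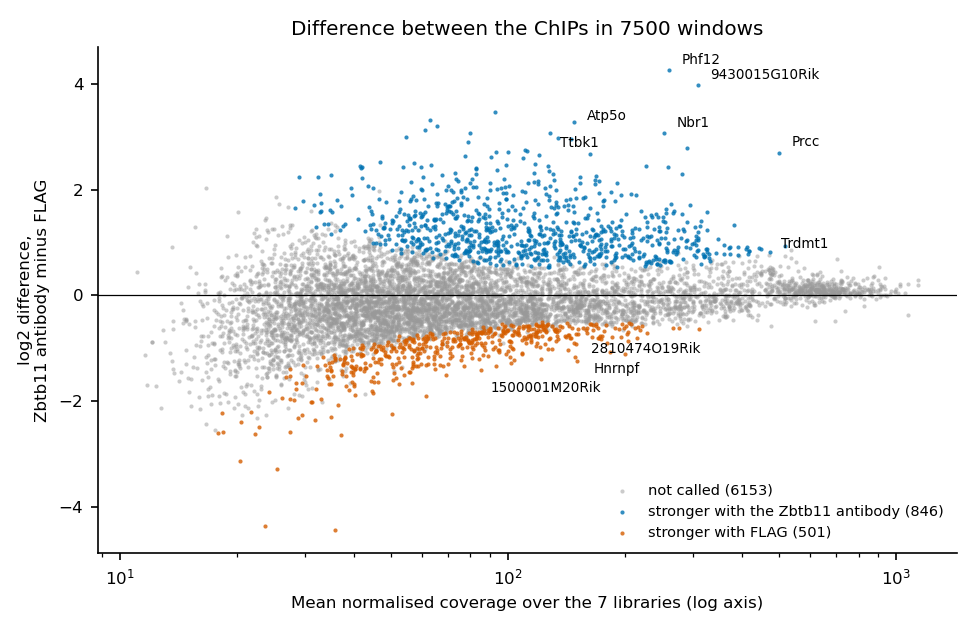
Each point is 1 of 7500 windows, with the mean normalised coverage over the 7 libraries on a log axis and the log2 difference (Zbtb11 antibody minus FLAG) on the vertical axis; blue and orange points were called with limma at an adjusted p below 0.05. The 846 blue windows reach a difference of 4.26 at Phf12, and the cloud narrows around 0 at the strongest windows on the right.

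The strongest windows were the most alike in the 2 ChIPs. When the windows were ordered by mean coverage and cut into deciles, the SD of the difference was 0.28 in the top decile (median coverage 539.6), where 34 windows were called for the Zbtb11 antibody and 0 for FLAG, against 0.66 in the ninth decile, where 190 and 32 were called. With the replicate block the top decile held 47 and 5 called windows. The median difference was -0.53 in the lowest decile and 0.09 in the highest. Less the median of all windows, they ranged over the alternatives from -0.52 to -0.02, the latter with cyclic loess, and from -0.03, without FLAG replicate 3, to 0.34. Replicates of one ChIP also spread widely in the top decile, where the median of the centred log2 coverage was 2.66, 3.21, 2.57 and 3.40 in the 4 Zbtb11 libraries and 3.12, 3.12 and 2.31 in the 3 FLAG libraries, so that the ChIPs overlapped.

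The promoter windows of Mrpl48, Ndufc2, Ndufaf1 and Ndufa12 had high coverage in both ChIPs, and none of these 4 was called. At the start of Mrpl48, which encodes a protein of the large subunit of the mitochondrial ribosome (chr7:107731063-107732263), coverage was 539, 779, 543 and 1011 with the Zbtb11 antibody and 690.2, 734 and 425 with FLAG. The ranges overlapped, and the difference was 0.09 ± 0.37 (SE; adjusted p = 0.897). The promoter windows of the complex I genes Ndufc2, Ndufaf1 and Ndufa12 differed by 0.05, 0.14 and 0.09, those of Hus1 (DNA damage checkpoint clamp), Slc35a3 (Golgi nucleotide sugar transporter) and Trp53 (p53) by 0.25, 0.20 and -0.08, and the window shared by Atp5j and Gabpa, the DNA-binding subunit of GABP, by -0.09. A second promoter window of Mrpl48, shared with Rab6, differed by -0.28 (adjusted p = 0.378). The smallest adjusted p of the others was 0.676, at Hus1.

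Zbtb11 itself has no gene of that name in the annotation used, but its RefSeq promoter sequence matched 1 place in mm9, inside the window chr16:55973356-55974556. Coverage there was 559, 755, 589 and 961.5 with the Zbtb11 antibody and 616, 605 and 377 with FLAG, which overlap (difference 0.31 ± 0.34 SE, adjusted p = 0.579). Among the genes of this and the preceding paragraph, Trdmt1, a tRNA methyltransferase gene, differed most. Its promoter window (chr2:13465733-13466933) had coverages of 437, 649, 447 and 821 with the Zbtb11 antibody and 339, 344 and 249.7 with FLAG, so the groups did not overlap. The difference of 0.77 ± 0.29 (SE) was not called (adjusted p = 0.0761), but passed with the replicate block (0.57, adjusted p = 0.0366).

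Promoters with the largest differences towards the Zbtb11 antibody were taken from called windows of at least median coverage without overlap. Ranking by difference picks windows that are high with the Zbtb11 antibody and low with FLAG, so that contrast follows from the choice. Upstream of Phf12, which encodes a PHD-finger subunit of a Sin3 histone deacetylase complex, the window centre lay 726 bases before the start (chr11:77794930-77796130). Coverage was 331, 575.5, 366 and 482.5 with the Zbtb11 antibody and 26.9, 14.6 and 19.2 with FLAG. All 4 Zbtb11 libraries were thus far above all 3 FLAG libraries, and the difference was the largest in this direction (4.26 ± 0.24 SE, limma adjusted p = 1.38e-09).

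At 9430015G10Rik (chr4:155483409-155484609, centre 82 bases upstream of the start), coverage was 385, 660.5, 376 and 649 with the Zbtb11 antibody and 31.7, 20.5 and 35.1 with FLAG, a difference of 3.98 ± 0.24 (SE, adjusted p = 4.26e-09). Atp5o encodes the oligomycin sensitivity subunit of the mitochondrial ATP synthase, and its promoter window (chr16:91931353-91932553) is centred 21 bases before the start, in a noncoding exon of the head-to-head transcript D430001F17Rik. Its coverage was 134.5, 353, 212 and 268 with the Zbtb11 antibody and 20.6, 11.7 and 36.7 with FLAG, which did not overlap (3.28 ± 0.33 SE, adjusted p = 1.39e-06). Among 19 windows at genes for complexes II to V, the other one called in this direction was at Cox7c, a subunit of cytochrome c oxidase, where the ChIPs overlapped (1.02, adjusted p = 0.0392).

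The divergent promoter of Nbr1, an autophagy receptor gene, and Brca1, a DNA repair gene (chr11:101413046-101414246, centre in the 5′ untranslated region of Nbr1), had coverages of 251, 441, 471 and 474 with the Zbtb11 antibody and 52.2, 36.6 and 40.9 with FLAG. The first Zbtb11 library was lower than the other 3, but still above every FLAG library (difference 3.07 ± 0.23 SE, adjusted p = 5.67e-08). The window of Prcc, a gene fused to transcription factor genes in renal carcinoma (chr3:87689107-87690307), was the strongest of the group, with 557, 968, 679 and 970.4 against 115.6, 106.7 and 104.4. Its FLAG coverage was above the median window, and its difference was 2.70 ± 0.25 (SE, adjusted p = 7.41e-07).

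The other 5 promoter windows with the largest differences towards the Zbtb11 antibody lay at Gm10401 (3.47), Sarm1, an NAD-cleaving enzyme of axon degeneration (2.78), Ptchd2 (2.71), Slc38a7, an amino acid transporter (2.70), and Tmem40 (2.65). At Gm10401 1 FLAG library was at 1.46, the smallest value that library can take above 0. Of the 10 windows, 3 lay on chromosome 11, and 7 held GGAACC in the central 300 bases. Of all windows, 9.40% lay on chromosome 11 and 28.1% held GGAACC, a word picked after the differences had been seen. Sarm1 was also the gene with the largest difference among those that fell after deletion of Zbtb11.

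Away from promoters the 5 largest differences were smaller than the largest at promoters. In an intron of Ttbk1, a tau kinase gene, 4001 bases into the gene (chr17:46620023-46621223), coverage was 146.7, 245, 183 and 255.5 with the Zbtb11 antibody and 17.4, 17.6 and 31.3 with FLAG (3.08 ± 0.26 SE, adjusted p = 2.34e-07). The ChIPs did not overlap there. Others of the 5 were introns of 4930500J02Rik (3.06) and Epb4.9, a membrane skeleton gene (2.97), and a window 4591 bases upstream of AC158662.1 (2.90).

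Differences towards FLAG were smaller at windows of at least median coverage. The largest at a promoter was at Zfp512, a zinc finger gene (chr5:31754232-31755432, centre in the 5′ untranslated region), where coverage was 41.1, 49.7, 66.6 and 39.0 with the Zbtb11 antibody and 104.5, 141.8 and 96.9 with FLAG. The groups did not overlap, and the difference was -1.33 ± 0.24 (SE, limma adjusted p = 0.000736). At the divergent promoter of Hnrnpf, a splicing factor gene, and 4933440N22Rik (chr6:117856326-117857526), coverage was 83.4, 96.2, 100.5 and 118.9 against 239, 225 and 188, and the difference was -1.24 ± 0.19 (SE, adjusted p = 0.000137).

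Gins1, which encodes a subunit of the replicative helicase complex (chr2:150734880-150736080), had 55.6, 41.7, 58.1 and 46.1 against 117.1, 117 and 92.3, without overlap (-1.21 ± 0.22 SE, adjusted p = 0.00077). The 2810474O19Rik window (chr6:149257553-149258753) had 107.8, 109, 96.3 and 92.3 against 215, 229.6 and 189.6 (-1.17 ± 0.18 SE, adjusted p = 0.00012). In both windows the FLAG libraries were all higher than every Zbtb11 library. The other 6 were Strap, an adaptor of TGF-β receptor signalling (-1.30), 1500001M20Rik (-1.28), Necap1, a clathrin adaptor gene (-1.21), Mtmr14, a phosphoinositide phosphatase gene (-1.20), Col6a4 (-1.18) and Klhdc5, a kelch-domain gene (-1.15). Of the 10 promoters, 7 lay on chromosome 6, and 1, Mtmr14, held GGAACC, against 5.04% and 28.1% of all windows. All 7 lay past 90 Mb, on the distal part of chromosome 6. That part held 2.65% of all windows and leaned towards FLAG as a block, as described below.

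Away from promoters and at windows of at least median coverage, the intron of Phyhipl had the largest called FLAG difference (chr10:70102401-70103601), with 45.6, 51.3, 71.5 and 42.6 with the Zbtb11 antibody and 117.1, 133.1 and 134.4 with FLAG (-1.41 ± 0.22 SE, adjusted p = 0.000144). The window 31027 bases downstream of the start of Pde6h, a cone phosphodiesterase gene, had 76.7, 54.5, 72.1 and 71.0 against 186.8, 136 and 126.9 (-1.22 ± 0.20 SE, adjusted p = 0.000322). The Pde6h window also lies on distal chromosome 6. Neither window showed overlap between the ChIPs. Others of the 5 were an intron of Arl15, a small GTPase gene (-1.18), and a window 41090 bases upstream of Rock2, a protein kinase gene (-1.17).

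The most negative difference of any window, -4.45, was at low coverage. That window, in an intron and nearest to Sec22a, had 1.11, 1.60, 3.03 and 8.87 with the Zbtb11 antibody and 68.1, 61.4 and 106.5 with FLAG. The first 2 Zbtb11 values are the smallest step that those libraries can take, so the size of the difference rests on that floor. The promoter window of Ttll1, a tubulin modification gene, had 4.45, 1.60, 0.606 and 1.77 against 53.8, 55.6 and 48.01, without overlap (-4.36, adjusted p = 0.00431), with 3 Zbtb11 libraries at their floor. A floor value was present in at least 1 library at 228 windows (3.04%), of which 9 were called for the Zbtb11 antibody and 14 for FLAG.

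**Figure D2:**
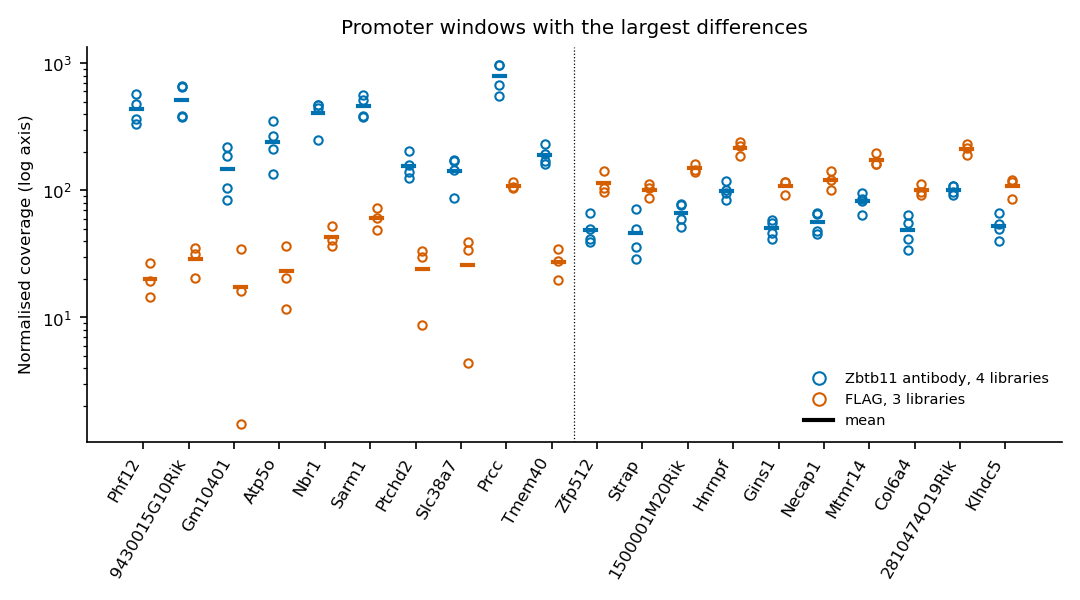
Open circles give the normalised coverage of each library on a log axis for the 10 promoter windows with the largest difference in either direction among called windows of at least median coverage without overlap, blue for the 4 Zbtb11 antibody libraries and orange for the 3 FLAG libraries, with bars at the means. At the first 10 genes (left of the dotted line) all blue circles are above all orange ones, from Phf12 (4.26 on the log2 scale) to Tmem40 (2.65), and at the last 10 all are below, from Zfp512 (-1.33) to Klhdc5 (-1.15).

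The class of a window changed how often it differed more than it changed the median difference. Divergent promoters, where 2 protein-coding genes start head to head at most 1000 bases apart, had a median of -0.07 (481 windows), other protein-coding promoters -0.12 (3613), windows inside genes -0.12 (1626) and intergenic windows -0.06 (1618), against -0.10 for all windows. Less that median, divergent promoters ranged from -0.06 to 0.06 over the alternatives and windows inside genes from -0.08 to 0.09. The per-library medians overlapped between the ChIPs in each of these classes. For divergent promoters the centred log2 coverage was 0.73, 0.83, 0.77 and 0.93 with the Zbtb11 antibody and 0.88, 0.85 and 0.87 with FLAG. More coverage with the Zbtb11 antibody was called at 8.52% of divergent promoters, 9.88% of other promoters, 13.3% of windows inside genes and 13.4% of intergenic windows. More coverage with FLAG was called at 9.15%, 6.89%, 6.40% and 5.81% of them, and with the replicate block at 18.5%, 15.3%, 11.4% and 10.9%.

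Without the block, windows farther from a gene start were more often called for the Zbtb11 antibody, except the farthest. Among 3125 windows centred within 250 bases of a start, 280 (8.96%) were called for the Zbtb11 antibody and 242 (7.74%) for FLAG. Between 1000 and 5000 bases the shares were 14.8% and 5.24% of 802 windows, between 5000 and 50000 bases 14.2% and 6.11% of 2079, and beyond 50000 bases 8.95% and 6.54% of 581. With the replicate block, FLAG was called at 16.5% of the windows within 250 bases and at 11.2%, 11.1% and 11.7% of these 3 classes. The Zbtb11 antibody was then called at 11.2% within 250 bases and at 19.7%, 17.3% and 13.8% of the 3 classes, so the farthest class was above the nearest. The median distance to a start was 2206 bases for windows called for the Zbtb11 antibody, 280 bases for those called for FLAG and 551.5 bases for all windows. At the 2-fold threshold, however, FLAG windows lay farther out too, with a median of 3704 bases against 2964 bases for the Zbtb11 antibody.

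CpG islands mark most promoters of widely expressed genes. Windows with an island (3852) had a median of -0.12 and windows without one (3648) of -0.07, and 8.98% and 13.7% were called for the Zbtb11 antibody. The split was alike at protein-coding promoters, where 9.06% of 3443 windows with an island and 13.2% of 651 without one were called for the Zbtb11 antibody. Away from promoters the shares were 8.76% of 354 and 13.9% of 2890 windows. The ChIPs overlapped in the per-library medians with and without an island.

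**Figure D3:**
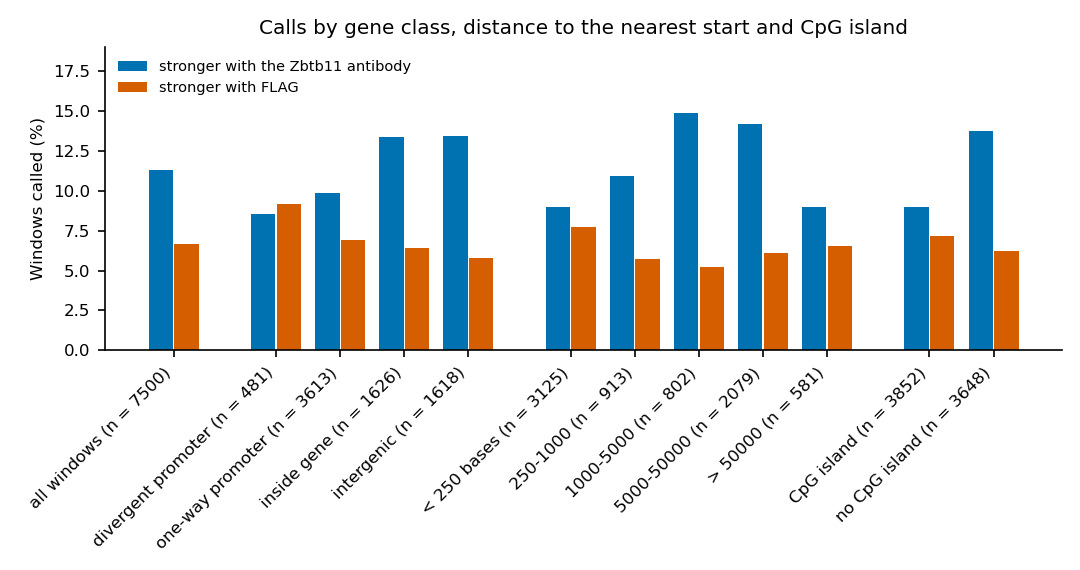
Bars give the percentage of windows called with more coverage with the Zbtb11 antibody (blue) or with FLAG (orange), for all windows, by gene class, by distance of the window centre to the nearest gene start and by presence of a CpG island, with the number of windows in brackets. Blue bars rise from 8.96% within 250 bases of a start to 14.8% at 1000 to 5000 bases and return to 8.95% beyond 50000 bases.

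The windows were also described by short sequence words. GGAACC, on either strand within the central 300 bases, was present in 28.1% of all windows and in 16.9% of 32851 RefSeq promoters of 300 bases (GRCm38.p6). It was searched for after the differences had been seen, so its values are a description and not a test. It was present in 53.3% of the windows called for the Zbtb11 antibody, 57.4% of those called at 2-fold, 25.6% of windows not called and 15.8% of those called for FLAG. The median difference was 0.12 with the word (2105 windows) and -0.19 without it (5395). Per-library medians of windows with the word were 0.47, 0.50, 0.40 and 0.41 with the Zbtb11 antibody and 0.19, 0.18 and 0.14 with FLAG, which did not overlap.

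With 2 or more copies of the word (328 windows) the median difference was 0.23, and 25.9% were called for the Zbtb11 antibody and 1.22% for FLAG. The word sat close to the window centre. In windows called for the Zbtb11 antibody at 2-fold, 36.2% had a copy within 25 bases of the centre, against 8.81% of windows not called and 3.79% of those called for FLAG. It went with the difference in each class of window, least at divergent promoters. The medians with and without it were 0.01 and -0.10 at divergent promoters, 0.07 and -0.19 at other promoters, 0.36 and -0.23 inside genes and 0.30 and -0.16 in intergenic windows. Of windows inside genes with the word, 32.7% were called for the Zbtb11 antibody, against 6.76% without it.

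Windows with the Ets-type word CCGGAAG had a lower median than all windows. It was present in 29.4% of windows and in 8.86% of RefSeq promoters, and windows with it (2206) had a median of -0.18, with 6.12% called for the Zbtb11 antibody and 8.52% for FLAG (18.2% with the replicate block). Per-library medians were 0.35, 0.47, 0.41 and 0.44 with the Zbtb11 antibody and 0.54, 0.62 and 0.53 with FLAG, without overlap. The word was present in 37.5% of windows called for FLAG, but in 30.8% of those called for FLAG at 2-fold, 30.6% of windows not called and 135 of the 846 windows called for the Zbtb11 antibody. Windows with CCGGAAG and no GGAACC had a median of -0.25 (1558 windows), windows with both 0.01 (648), windows with GGAACC only 0.21 (1457) and windows with neither -0.16 (3837).

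**Figure D4:**
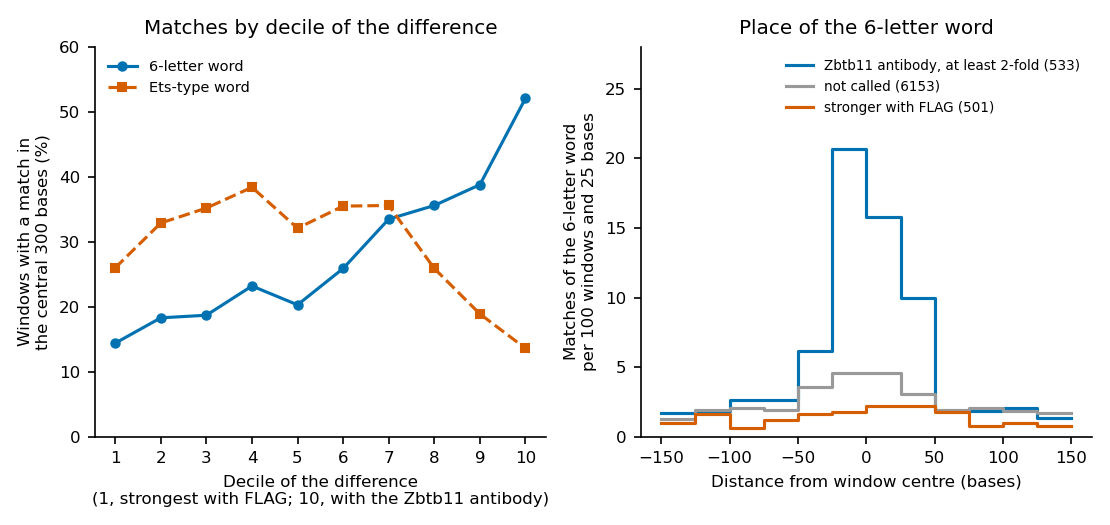
Left, the percentage of windows with GGAACC (blue, the 6-letter word) or CCGGAAG (orange, the Ets-type word) in the central 300 bases, for deciles of the log2 difference of 750 windows each; right, matches of the 6-letter word per 100 windows and 25 bases by distance from the window centre. The first word rises from 14.4% in the decile strongest with FLAG to 52.1% in the decile strongest with the Zbtb11 antibody while the second goes from 26.0% to a peak of 38.4% in the fourth decile and, after the seventh, down to 13.6%, and matches peak at 20.6 per 100 windows beside the centre of the 533 windows at least 2-fold stronger with the Zbtb11 antibody.

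Of the other motifs, the long motif of Zfp143, a zinc finger activator of housekeeping promoters, had the largest median. An exact match was present in 34 windows (0.453%, against 0.286% of RefSeq promoters), 31 of them at protein-coding promoters. Their median difference was 0.57, and 15 (44.1%) were called for the Zbtb11 antibody and 0 for FLAG. Per-library medians were 1.16, 1.73, 1.45 and 1.52 with the Zbtb11 antibody and 0.53, 0.60 and 0.18 with FLAG, without overlap. Called promoters with the motif included those of Rabac1, a vesicle trafficking gene (1.84), Rangap1, a nuclear transport gene (1.46), Ggps1, of isoprenoid synthesis (1.37), Mdh1, a malate dehydrogenase (1.25), and Wnk1, a kinase of ion transport (1.08).

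The NRF-1 palindrome (47 windows, 0.627%, against 0.971% of promoters) had a median of -0.25, with 2 windows (4.26%) called for the Zbtb11 antibody and 6 (12.8%) for FLAG. Of all windows, 11.3% and 6.68% were called. TGACGTCA, the cAMP response element (96 windows, 1.28%, against 1.79%), had a median of -0.29, with 5 (5.21%) and 14 (14.6%) windows called. With the replicate block 7 (7.29%) and 26 (27.1%) were called, against 14.35% and 13.63% of all windows. Per-library medians of TGACGTCA windows were 0.20, 0.26, 0.10 and 0.20 with the Zbtb11 antibody and 0.40, 0.50 and 0.30 with FLAG, without overlap. GGGCGG, the Sp1 box (39.6% of windows, 35.7% of promoters), CCAAT (25.7% and 37.4%), CACGTG, the E-box (6.36% and 7.15%), the Yy1 motif (0.693% and 0.633%) and the Zbtb33 palindrome (0.227% and 0.466%) had medians of -0.16, -0.10, -0.12, -0.12 and 0.03. All words were searched on both strands, and a match says only that the letters are present.

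Windows on the distal part of chromosome 6 leaned towards FLAG as a block. From 90 Mb onwards, a border drawn after the values were seen, 199 windows had a median difference of -0.54, and 64 of them (32.2%) were called for FLAG and 14 (7.04%) for the Zbtb11 antibody. Per-library medians were -0.11, -0.10, -0.07 and 0.00 with the Zbtb11 antibody and 0.31, 0.37 and 0.31 with FLAG, without overlap. The 179 windows before that border had a median of -0.13, with 9 called for FLAG. The distal part held 2.65% of all windows and 12.8% of those called for FLAG. When each library was centred within each chromosome, 48 of its windows were called for FLAG, and with the replicate block 88.

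Chromosome 8 leaned the other way, with a median of 0.12 over 403 windows, of which 59 (14.6%) were called for the Zbtb11 antibody and 11 (2.73%) for FLAG. The per-library medians were 0.36, 0.21, 0.10 and 0.14 against -0.07, -0.03 and -0.03. The X chromosome (97 windows) had a median of -0.28, with medians of -0.64, -0.71, -0.56 and -0.52 against -0.31, -0.32 and -0.35. The ChIPs did not overlap on either chromosome. Nor did they on chromosomes 7, 9, 13, 16 and 17, and on chromosome 7 the share called for the Zbtb11 antibody was 15.7% of 497 windows and that for FLAG 3.82%. Medians of the remaining chromosomes lay between -0.16 and -0.03.

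The RNA libraries differed over chromosome 8 and most of distal chromosome 6, but little over X. They come from Zbtb11WT/WT cells treated with 4-hydroxytamoxifen (4OHT control) and from Zbtb11lox/lox cells with ERt2-Cre at Rosa26 (EtOH control and KO), 3 libraries each and 250 nM for 48 h where 4OHT was given, and none is from the FLAG line. Over 237 expressed genes on distal chromosome 6, the median log2 CPM less each gene's mean was -0.36, -0.32 and -0.33 in the 4OHT control. It was 0.16, 0.21 and 0.18 for the EtOH control libraries and 0.16, 0.17 and 0.17 for the KO libraries, all higher than in the 4OHT control. The median difference between 4OHT control and EtOH control was -0.52 there and -0.03 on the first part of the chromosome. On chromosome 8 it was 0.24, on X -0.05, and on the other autosomes between -0.04 and 0.00. In steps of 15 Mb along chromosome 6, RNA was lower in the WT cells from 105 Mb on, with medians of -0.56, -0.56 and -0.59, and the ChIP difference there was -0.70, -0.42 and -0.78. Between 90 and 105 Mb the ChIP median was -0.47 (28 windows) and the RNA median -0.01 (36 genes). The number of copies of these regions in each line was not tested.

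**Figure D5:**
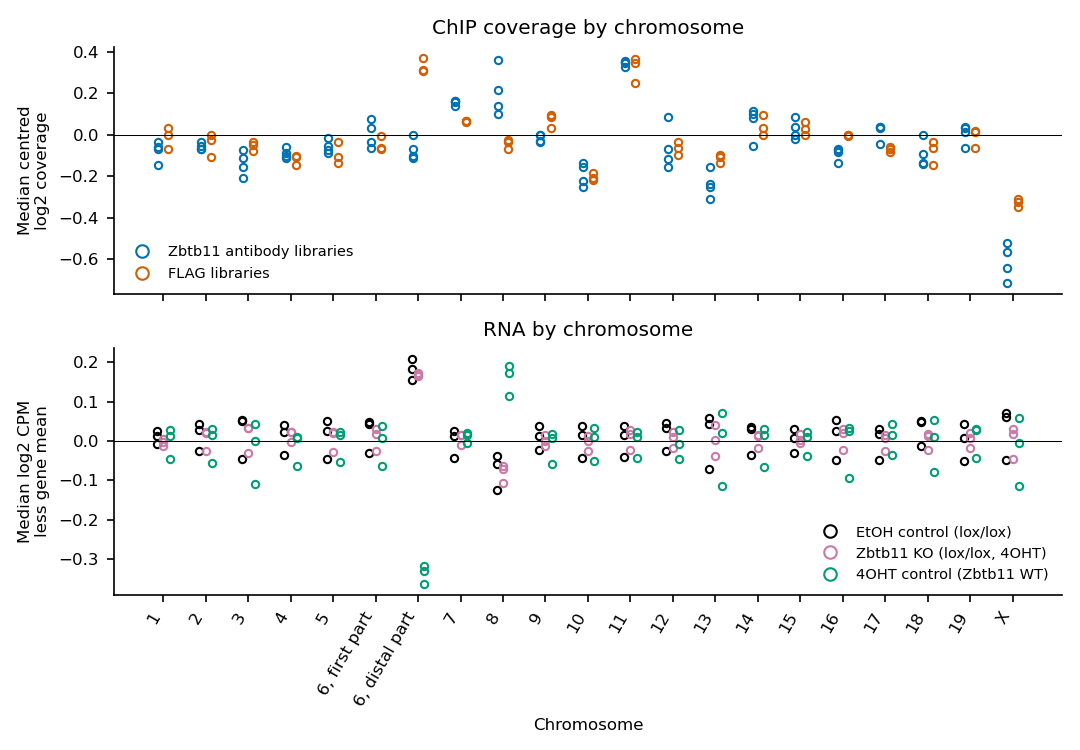
Upper, the median centred log2 coverage of the windows of each chromosome in each ChIP library (blue, Zbtb11 antibody; orange, FLAG); lower, the median log2 CPM less the gene mean in each of 9 RNA libraries, with chromosome 6 in 2 parts. On distal chromosome 6 the FLAG libraries lie at 0.31 to 0.37 above Zbtb11 libraries at -0.11 to 0.00, and the 4OHT control RNA of WT cells lies below that of both lox/lox groups.

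Genes of the respiratory machinery were described by lists of their promoter windows. For the large subunit of the mitochondrial ribosome, 27 of 47 genes had a window. Of its 29 windows, 3 (10.3%) were called for the Zbtb11 antibody and 2 (6.90%) for FLAG, against 11.3% and 6.68% of all windows. The median difference over these windows was 0.04. Less the median of all windows, this median ranged from -0.09 without FLAG replicate 3 to 0.29 without FLAG replicate 2. Mrpl34 was highest in the list. Its window (chr8:73988209-73989409) had a mean coverage of 260.7 ± 70.9 (SD, n = 4) with the Zbtb11 antibody and 51.9 ± 4.47 (SD, n = 3) with FLAG, a difference of 2.16 (limma adjusted p = 1.24e-06). Windows that Mrpl50 shares with Zfp189 (1.03) and Mrpl18 with Tcp1 (0.93) were also called for the Zbtb11 antibody, and Mrpl33 (-0.71) and Mrpl51 (-0.62) for FLAG.

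For the small subunit, the median over 16 windows was 0.11. Mrps25 (1.59) and Mrps18b (1.38) were called for the Zbtb11 antibody (12.5% of the list) and Mrps35 (-0.78) for FLAG (6.25%). Mrpl51 and Mrps35 lie on distal chromosome 6, as does Mrps25. Without the block, complex I subunits (12 windows, median 0.03, range -0.64 to 0.32) and assembly factors (4 windows, median 0.17) held no called window, nor did the mitochondrial tRNA synthetases (9 windows, median -0.08). With the replicate block, Ndufa1 (-0.80, adjusted p = 0.0147), Hars2 (-0.62, adjusted p = 0.0101) and Rars2 (-0.75, adjusted p = 0.0124) were called for FLAG. These are 8.33% of the complex I windows and 22.2% of the synthetase windows, against 13.6% of all windows with the block.

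In complexes II to V the median over 19 windows was -0.27, and the cytochrome c oxidase gene Cox5b (-0.59) and the complex III gene Uqcrq, in a window shared with Gdf9 (-0.57), were called for FLAG. Calls made up 10.5% of this list in each direction. With the replicate block 2 windows of this list (10.5%) were called for the Zbtb11 antibody and 5 (26.3%) for FLAG, against 14.35% and 13.63% of all windows. Mitochondrial protein import (8 windows) had the lowest median of any list of several windows (-0.47). Its called windows were that of Timm23, an inner membrane translocase gene, and Parg (-0.68), and that of Tomm34, a chaperone gene, and Stk4 (0.59). Each made up 12.5% of the list. Among regulators of respiration (10 windows, median -0.03), Pprc1, a coactivator of the PGC-1 family, had a mean coverage of 260.5 ± 69.6 (SD, n = 4) with the Zbtb11 antibody and 66.0 ± 8.18 (SD, n = 3) with FLAG (1.81, adjusted p = 8.74e-06). Tfb2m, a mitochondrial transcription factor gene that shares its window with Cnst, was called for FLAG (-0.52, adjusted p = 0.0398). Calls made up 10.0% of the regulator windows in each direction.

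In the other gene lists, the shares of called windows are read against 11.3% and 6.68% of all windows. Cytosolic ribosomal protein genes (45 windows) had a median of -0.22, with 3 (6.67%) called for the Zbtb11 antibody, led by Rpl14 (1.22), and 5 (11.1%) for FLAG, led by Rpsa (-1.02). These windows include chr16:55973356-55974556, which the annotation gives to Rpl24 and which matched the Zbtb11 promoter sequence above. Genes of GPI anchor and N-glycan synthesis (23 windows, median 0.04) had 3 (13.0%) and 2 (8.70%) called, from Alg12 (1.00) to Pigu (-0.82). Zinc finger genes named Zfp (131 windows, median -0.08) had 7 (5.34%) and 9 (6.87%) called, from Zfp2 (1.50) to Zfp524 (-1.38). Zbtb genes (18 windows, median 0.00) had 1 called, Zbtb24, a gene mutated in an immunodeficiency syndrome (0.66). Genes of tRNA and rRNA modification (15 windows, median 0.08) had Dus3l (0.73) called for the Zbtb11 antibody and Trmt5 (-1.49) and Trmt6 (-0.57) for FLAG, which is 6.67% and 13.3% of them. The pluripotency list held 1 window, at Pou5f1 (-0.54, adjusted p = 0.462), and the histone list 1, at Hist1h1t (-0.04).

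Promoters of genes that fell after deletion of Zbtb11 were strongly covered in both ChIPs. In Zbtb11 KO cells against the EtOH control, 121 of 14346 genes (0.843%) were lower and 8 (0.0558%) higher (edgeR quasi-likelihood test, adjusted p below 0.05), and 257 and 66 with the replicate block. The counts were 191 and 21 without replicate 1, 13 and 0 without replicate 2, and 21 and 0 without replicate 3. Of the 121 genes, 114 had a promoter window, and their 116 windows had a median difference of 0.10 and a median coverage of 624, against 69.6 for all windows. Per-library medians were 2.75, 3.37, 2.72 and 3.77 with the Zbtb11 antibody and 3.31, 3.32 and 2.49 with FLAG, which overlap.

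Of the 116 windows, 3 (2.59%) were called for the Zbtb11 antibody and 1 (0.862%) for FLAG, against 4.53% and 0 in the top decile of coverage. They were Sarm1 (2.78), Atpaf1, an assembly factor of ATP synthase (0.90), and the window shared by Cops7b and Pde6d (0.86) for the Zbtb11 antibody, and the window of Mbtps2 and Yy2 for FLAG, where the libraries overlapped (-1.60, adjusted p = 0.0357). The 9 windows of the 8 genes that rose had a median of 0.07 and none was called. As a check of the cells, the ESC markers Pou5f1, Sox2, Nanog, Zfp42, Esrrb, Klf4, Tdgf1 and Dppa5a were at 212 to 1070 CPM in every RNA library, and Gata4, Sox17, Pax6, T, Col1a1 and Ptprc at 17.2 CPM or less.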

How the data were processed

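The coverage (signal) values were used as deposited. Per the labels and the study, the authors used cutadapt for trimming, Bowtie 1.1.2 for alignment to mm9 and MACS2 for peaks, and DiffBind normalised the coverage of consensus windows between libraries after duplicates had been removed. Whether input was subtracted is not given in the sources used here. The gene counts are also as deposited by the authors (STAR, HTSeq, no normalisation). Between 25.3 and 31.6% of reads in a library were assigned to no gene and were left out of the tests. Counts on genes ranged from 14301457 to 23876604 per library.

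All coverage values were whole multiples of 1 step per library (100% within 0.01 of a step), and the steps over all windows summed to 611932 to 1915856 per library, so they were also tested with edgeR as recovered reads. In some libraries windows piled up at the lowest step (101 at 1 step and 30 at 2 steps in Zbtb11 replicate 4), so the steps may not be reads there. The values were otherwise log2-transformed with a pseudocount of 1, each library centred on its median window, and compared with limma 3.58.1 in R 4.3.3 (empirical Bayes with trend, group only, two-sided). KO was tested with edgeR 4.0.16 (genes over 1 CPM in at least 3 libraries), with DESeq2 1.42.0 as an alternative. On simulated data for the ChIP comparison with 200 of 7500 windows changed, limma recovered 51% of changes of 1 and 91% of changes of 2 on the log2 scale, and 2.74% of its calls were false. The simulated libraries were independent and normal, without pairing, scaling differences, chromosome blocks or floor values. These rates therefore do not carry over to the calls in the real data. For the KO, edgeR recovered 160 of 200 changed genes among 14188. The study calls the libraries biological replicates.

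Deviations of same-numbered libraries correlated at 0.218, 0.119 and 0.469 for the ChIPs, and at 0.815, 0.510 and 0.592 for KO and EtOH control. Some libraries with unlike numbers correlated to a similar degree. Zbtb11 replicate 2 and FLAG replicate 1 were at 0.147, and RNA replicates 2 and 3 at 0.452 and 0.428. Other unlike pairs were negative, down to -0.317 for the ChIPs and -0.678 for the RNA. For each FLAG library, and for each KO and EtOH control library, the same-numbered pair had the highest correlation. For Zbtb11 replicate 2 it did not. The pairing is therefore not settled by these values. The main fits used group only and ignored the numbers, because the labels do not say that a number marks a shared day. Counts with the block, which takes the numbers to pair the libraries, are given beside the main ones.

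Promoters run from 2000 bases upstream to 500 bases downstream of starts in GENCODE M1. CpG islands were found as 500-base stretches whose GC content reached 55% and whose CpG count reached 0.65 of that given by their C and G content. Named windows are, per direction, the 10 promoter and 5 other windows with the largest difference among called windows of at least median coverage whose libraries do not overlap. Promoter windows of a set list of genes are named too. Mrpl48, Ndufc2, Ndufaf1, Ndufa12 and Trp53 of that list are named in the study's text. Of these windows, 2 are not reported here. Ndufs7 and Nrf1 had no promoter window. Members and lists were chosen with earlier results of these data known, and no test was made over a list. RNA was read by chromosome for genes with a mean over 5 CPM. The peak lists were used only for overlap with the windows. The alternatives with edgeR on reads, with chromosome centring and without floor values, the word GGAACC and the border on chromosome 6 were chosen after seeing the data.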

Additional observations from a re-analysis of the deposited data

Results flagged for a closer look

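In 119 groups of 4 Zbtb11 antibody libraries, 1 library stood far from the other 3 in 3 cases, where chance alone flags about 1 in 20 groups. The groups of 3 FLAG libraries are too small for this check. At windows inside genes, replicate 1 had a median centred log2 coverage of -0.39, against -0.61, -0.60 and -0.57 in the others, and the gap took 0.845 of the range. On chromosome 17, replicate 1 was at -0.04, against 0.03, 0.04 and 0.04 (0.921 of the range). At the Nbr1 and Brca1 window, replicate 1 was at 1.76, against 2.66, 2.62 and 2.76 (0.864 of the range). Replicate 1 was the library apart in all 3 cases. These are fewer cases than the chance rate alone would give, so no trait of that library is read from them.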

How the results depend on the processing

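The number of windows with more coverage with the Zbtb11 antibody stayed within 1.5 times of 846 in every alternative run. The FLAG number (501) was 255 without centring, 813 with quantile normalisation, 282 without a trend in the variance, 304 with edgeR on the recovered reads and 137 at an adjusted p below 0.01. At 2-fold (211) it was 113 without centring, 123 with cyclic loess, 136 with edgeR and 83 at 0.01. Leaving out 1 library at a time gave 131 to 522 windows for FLAG and 80 to 263 at 2-fold. Blocking on the replicate number gave 1022 windows for FLAG, and 257 genes lower and 66 higher in the KO. DESeq2 called 16 genes higher, and leaving out 1 replicate gave 13 to 191 genes lower and 0 to 21 higher. The cause of these shifts was not tested. All 30 called windows that were named by size of difference kept their call in each alternative, except that Gm10401 has no value without windows at the lowest step, and of 759 recomputed values for 40 named windows, 0 turned direction and 6, all of Trdmt1, passed the threshold. The 30 windows were picked for large differences without overlap in these same libraries, so keeping the call follows largely from that choice. Of 1110 recomputed medians of groups of windows, 113 moved by more than 1 SD between libraries. Less the median of all windows, the median kept its sign over all alternatives for GGAACC (0.17 to 0.30), the Zfp143 motif (0.53 to 0.74), CCGGAAG (-0.13 to -0.05), TGACGTCA (-0.22 to -0.14) and distal chromosome 6 (-0.50 to -0.33). GGAACC and the border on chromosome 6 were chosen on these same values, so their kept sign is no separate check. For chromosome 8 and X it changed sign (-0.02 and 0.11) only when libraries were centred within each chromosome, which removes a chromosome median by construction. It changed sign for divergent promoters (-0.06 to 0.06), windows inside genes (-0.08 to 0.09), the large mitochondrial ribosome subunit (-0.09 to 0.29), complex I subunits (-0.12 to 0.25) and the top decile of coverage (-0.03 to 0.34). The median SE was 0.60 in the lowest decile of coverage, 0.19 in the eighth and 0.32 in the top decile, which limits what could be called at both ends.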
